A study of Mus musculus with 27 samples.

Results

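Cytosolic ribosomal proteins are the protein components of the ribosomes that translate nuclear-encoded messenger RNA. Their genes were taken as the protein-coding mouse genes with an Rps, Rpl or Rplp symbol followed by the standard number and an optional a, l or x, together with Rpsa, which gave 80 of the 53379 genes in the count table, 31 of the small and 49 of the large subunit. The 80 genes lay on 19 chromosomes, most often on chromosome 7, which carried 14. They were measured by bulk RNA sequencing in hepatic stellate cells (HSCs), the vitamin A-storing pericytes of the liver, from male Balb/c mice. HSCs were isolated by liver perfusion and sorting for ultraviolet positivity, the fluorescence of their retinoid stores, and were lysed without culture.

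The 27 libraries fell into 7 groups. The healthy group (n = 4) came from mice of 10 to 12 weeks that received nothing, so no oil-injected control was among the libraries. The acute groups came from mice of 10 to 12 weeks given 1 intraperitoneal injection of carbon tetrachloride (CCl4), a hepatotoxin, at 0.5 µL per gram in mineral oil, and HSCs were taken 24 h later in 3 libraries, 72 h later in 4 and 7 d later in 4. The chronic groups received 8 injections of that dose over 4 weeks, beginning at 8 to 10 weeks of age, with HSCs taken 24 h, 72 h or 14 d after the last (n = 4 each). Because the sort relies on retinoid, HSCs that had lost it would not be collected. The RNA is bulk, so more ribosomal protein RNA per cell and more cells of a type rich in it cannot be told apart. The libraries held total counts of 6314801 to 13052838, and 8 of them, the chronic 24 h and 72 h replicates 1 and 2 and all chronic 14 d libraries, formed a shallower class of at most 7580709 counts. HSC markers were present in every group, with a summed level of 35300 to 54600 CPM (counts scaled by the library's TMM-adjusted total) in healthy and 16200 to 19100 CPM in chronic 24 h libraries.

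Each ribosome carries 1 copy of nearly every ribosomal protein, so cells keep these genes in balance and change them together. Many of their messenger RNAs begin with a run of pyrimidines, the 5′ terminal oligopyrimidine (TOP) motif, through which the kinase complex TORC1 controls their translation. Their short, abundant messages have also left many processed pseudogenes in mammalian genomes, copies that can share long stretches with the parent gene.

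Start sites of some members share a run of pyrimidines. Promoter sequences (RefSeq, GRCm38.p6, 250 bases before to 50 after each start) were found for 60 of the 80 members, 10 of them with more than 1 start. The windows below span 15 bases on each side of the start, on the gene's strand, with the pyrimidine run that covers the start base in capitals. Rps6 and Rps9 are shown because their levels are followed below, Rps27 for its paralog Rps27l, and Rpl35a for the longest run of these. Rpl35a has more than 1 start, and its starts not shown had runs of 4 and 0. Each window shown holds a run of 8 or more, which most of the 60 members lack.
Rps6 (chr4:86857353-86857382, minus strand): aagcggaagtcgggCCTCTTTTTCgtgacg
Rps9 (chr7:3704026-3704055, plus strand): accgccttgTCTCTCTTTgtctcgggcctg
Rps27 (chr3:90213634-90213663, minus strand): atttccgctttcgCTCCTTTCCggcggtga
Rpl35a (chr16:33056467-33056496, plus strand): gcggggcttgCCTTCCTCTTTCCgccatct

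A start base inside a run of 8 or more pyrimidines was found in 17 of the 60 members (28.3%) and in 4.54% of 26965 other genes. The letters CTTTC within 10 bases of the start, on the gene's strand, were present in 13 members (21.7%) and 3.47% of other genes. The letters CGGAAG, a core bound by ETS-family factors, occurred on either strand of the window in 41 members (68.3%) and 18.7% of other genes, and a base could count towards both motifs. TATAAA on the gene's strand, between 40 and 15 bases before the start, was found in 0 of the 60 members and 2.41% of other genes. These are matches of letters, not measured binding. Genes for small nucleolar RNAs, the guides of ribosomal RNA modification, lay inside 29 of the 80 members (36.2%) and 1.39% of 14002 other protein-coding genes tested.

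Pseudogene copies bear directly on the counts. A 75-base stretch, the read length, of the Rps6 coding sequence (bases 628 to 702 of the coding sequence, GENCODE M21) is found unaltered in 8 of the 11 pseudogenes that share any such stretch with it.
Rps6: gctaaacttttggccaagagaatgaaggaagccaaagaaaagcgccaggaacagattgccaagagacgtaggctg
A read from this stretch fits all of those places equally. Rps6, an essential small-subunit protein and the phosphorylation target of S6 kinase, held a mean of 52.4 counts per library, while its pseudogene Rps6-ps4 held 868.0. Across the members, 75 had at least 1 pseudogene sharing a 75-base window, 57 held fewer counts than those pseudogenes together and 42 fewer than a single one. The median member had 49.7% of its windows in no other gene, against 100% for the median of 13974 other protein-coding genes, and Rps3 was unique throughout. The share of unique windows and the mean count had a Spearman rho of 0.39 over the 76 members tested, which share the same libraries. Rps4l, Rpl6l and Rpl32l match the naming rule but are annotated as pseudogenes and were not counted as members, although Rps4l held a mean of 573 counts.

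**Figure D1:**
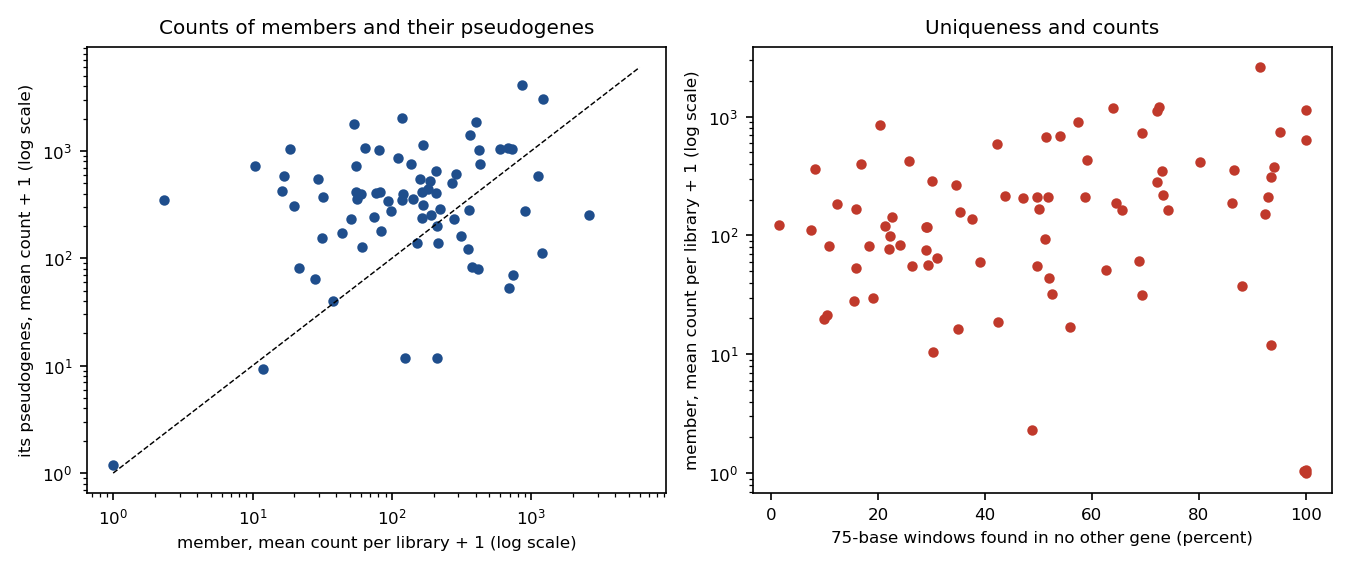
Left, mean count per library (+1, log scale) of each member against that of the pseudogenes sharing a 75-base window with it, with the line of equality; right, share of a member's 75-base windows found in no other gene (percent) against its mean count (+1, log scale). Most members, 57 of 75, held fewer counts than their pseudogenes.

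Ribosomal protein genes took a small share of the counts, which was above healthy in every injury group but chronic 14 d. The members' share was 0.149%, 0.0985%, 0.0843% and 0.121% of the counts in the 4 healthy libraries. It was 0.359%, 0.305% and 0.303% at acute 24 h, 2.84 times the healthy mean, and every acute 24 h library was above every healthy library. The mean share then stood at 0.251% ± 0.0307 (SD, n = 4) at acute 72 h and 0.192% ± 0.0196 (SD, n = 4) at acute 7 d. It was 0.228% ± 0.0355 (SD, n = 4) at chronic 24 h, 0.219% ± 0.0529 (SD, n = 4) at chronic 72 h and 0.151% ± 0.0128 (SD, n = 4) at chronic 14 d, where the libraries overlapped the healthy ones. Among the chronic 24 h libraries the 2 shallower ones had 0.184% and 0.225% and the 2 deeper ones 0.27% and 0.233%, all above healthy. At chronic 72 h the shallower pair had 0.171% and 0.212% and the deeper pair 0.198% and 0.294%. The chronic 14 d libraries were all shallow, so that depth and group cannot be told apart there. There were 1.81 to 2.5 large-subunit counts per small-subunit count over all libraries.

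The 632 pseudogenes that share a window with a member took 0.211% ± 0.0408 (SD, n = 4) of the counts in healthy and 0.582% ± 0.0637 (SD, n = 3) in acute 24 h libraries. There were 1.72 to 2.12 pseudogene counts per member count in every library (mean 1.87 ± 0.0858, SD). Of the 401 of these pseudogenes that could be tested, 351 were called higher than healthy at acute 24 h, 313 at chronic 24 h and 0 at chronic 14 d. Of all genes tested, 15.5%, 17.1% and 5.12% were called higher in these comparisons. Reads from a member and from its pseudogene copies cannot be told apart where the sequence is shared.

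**Figure D2:**
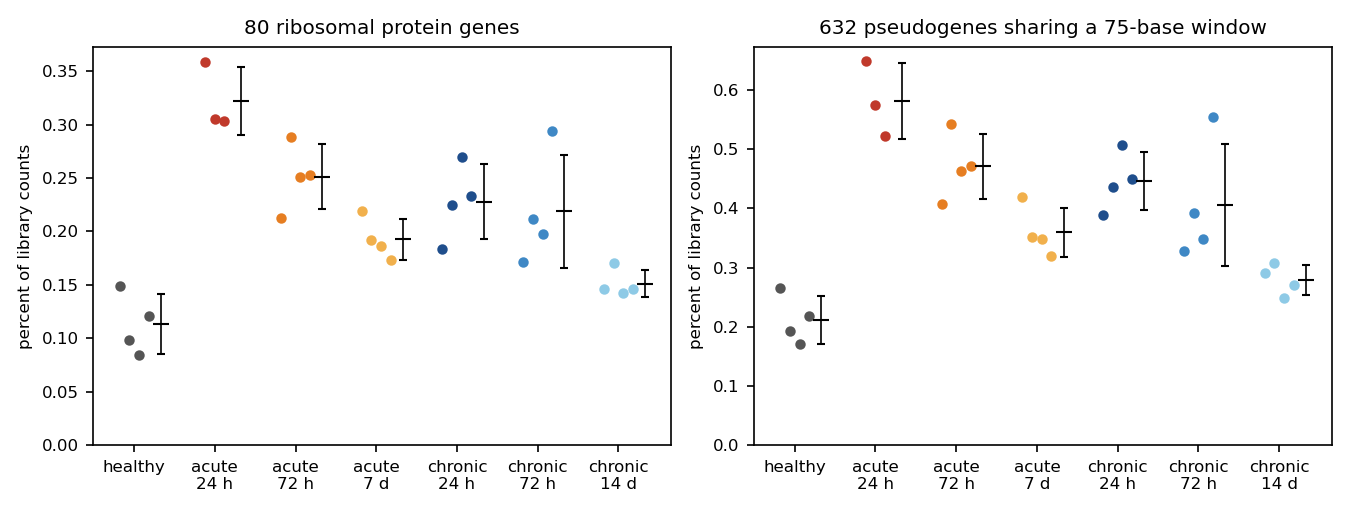
Percent of a library's counts taken by the 80 members (left) and by the 632 pseudogenes that share a 75-base window with them (right), 1 point per library, with mean and SD beside each group. In both panels all acute 24 h libraries are above all healthy libraries, and chronic 14 d overlaps healthy.

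Gene-by-gene comparisons used edgeR's quasi-likelihood test with Benjamini-Hochberg adjustment over 18758 genes, and a gene was called at an adjusted p below 0.05. Of the 80 members 76 passed the filter on low counts, and Rpl3l, Rpl10l, Rpl39l and Rpl38 did not. Rpl3l, a muscle paralog, had 0 counts in all libraries, and the testis paralogs Rpl10l and Rpl39l had at most 1 and 2 counts in any library. Rpl38, a regulator of Hox messenger RNA translation, had at most 8 counts. The 6 comparisons with healthy share the same 4 healthy libraries.

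At acute 24 h, 44 of the 76 members were called higher than in healthy HSCs and 0 lower, where 15.5% of all genes were called higher and 18.1% lower. The members' median log2 fold change was 1.40, while the median of all genes was −0.12, and 75 of the 76 were above 0. The 2 subunits gave the same median, 1.40 over 31 small-subunit and 1.40 over 45 large-subunit members. Every acute 24 h library was above every healthy library for 54 members, and 19.7% of all genes showed the same separation.

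Rpl32, a large-subunit protein, had the largest rise among the members called. Its level was 23.0, 2.24, 1.18 and 6.07 CPM in the healthy libraries and 141, 96.2 and 93.1 CPM at acute 24 h (log2 fold change 3.76, SE 0.96, adjusted p = 0.00392). The lowest acute library was well above the highest healthy one, although healthy replicate 1 stood far above its group. Rpl10a, the protein of the L1 stalk, stood at 9.70, 1.75, 4.63 and 10.4 CPM in healthy and 58.7, 58.2 and 60.8 CPM at acute 24 h (log2 fold change 3.16, SE 0.51, adjusted p = 4.68e-05). The 3 acute values were nearly the same, and the groups did not overlap. However, only 12.4% of the read-length windows of Rpl10a were found in no other gene. Its pseudogene Rpl10a-ps1 held a mean of 388.4 counts per library, against 182.1 for Rpl10a. The counts of Rpl10a are therefore uncertain, here and in the comparisons below. Rps4x, the X-linked copy of a small-subunit protein, had 8.52, 7.51, 10.5 and 6.50 CPM in healthy and 65.2, 70.6 and 57.9 CPM at acute 24 h (log2 fold change 2.96, SE 0.81, adjusted p = 0.00654).

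Rps3, which shares no window with another gene, gave the same direction. This small-subunit protein at the messenger RNA entry channel, which also has roles in DNA repair, had 78.1, 47.9, 38.4 and 67.3 CPM in healthy and 176, 147 and 161 CPM at acute 24 h (log2 fold change 1.48, SE 0.25, adjusted p = 6.73e-05). Its groups did not overlap. When the members tested were split into 3 classes by their share of unique windows, 13 of 25, 17 of 25 and 14 of 26 were called from the least to the most unique class, with median log2 fold changes of 1.21, 1.41 and 1.29. By mean count, 8 of the 25 lowest, 14 of the 25 middle and 22 of the 26 highest members were called. Both splits are for acute 24 h. From the least to the most unique class, the medians were 0.65, 0.96 and 1.14 at acute 72 h. They were 0.4, 0.56 and 0.68 at acute 7 d and 0.38, 0.55 and 0.92 at chronic 72 h, rising with uniqueness. At chronic 24 h they were 0.85, 1.13 and 1.0, with no such order. Median mean counts of these classes were 98.2, 166.7 and 295.1, and whether sharing or count underlies the rise was not tested.

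Other members with known special roles rose as well. Rpsa, which also occurs as a laminin receptor, had 48.3, 30.4, 6.83 and 32.3 CPM in healthy and 130, 124 and 109 CPM at acute 24 h (log2 fold change 2.04, SE 0.40, adjusted p = 0.000368). Rplp0, the base of the acidic stalk, had 90.1, 43.7, 51.6 and 77.6 CPM in healthy and 355, 206 and 229 CPM at acute 24 h (log2 fold change 2.0, SE 0.38, adjusted p = 0.000266). Neither gene's groups overlapped. Rps6 had 4.26, 3.51, 2.53 and 2.34 CPM in healthy and 12.6, 9.46 and 8.34 CPM at acute 24 h (log2 fold change 1.68, SE 0.26, adjusted p = 2.52e-05), a rise seen in every library despite its low level. Rpl11, which with Rpl5 and the 5S ribosomal RNA restrains the p53 regulator Mdm2, rose too (log2 fold change 1.75, SE 0.49, adjusted p = 0.00748). Rpl5 itself was not called (log2 fold change 0.01, SE 0.70, adjusted p = 0.999), with 5.31 to 13.3 CPM in healthy and 5.61 to 16.7 CPM at acute 24 h. Rps19, mutated in Diamond-Blackfan anaemia, had 0.453, 14.3, 16.8 and 1.73 CPM in healthy and 60.3, 37.2 and 36.5 CPM at acute 24 h, and although the groups did not overlap it was not called (adjusted p = 0.169).

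**Figure D3:**
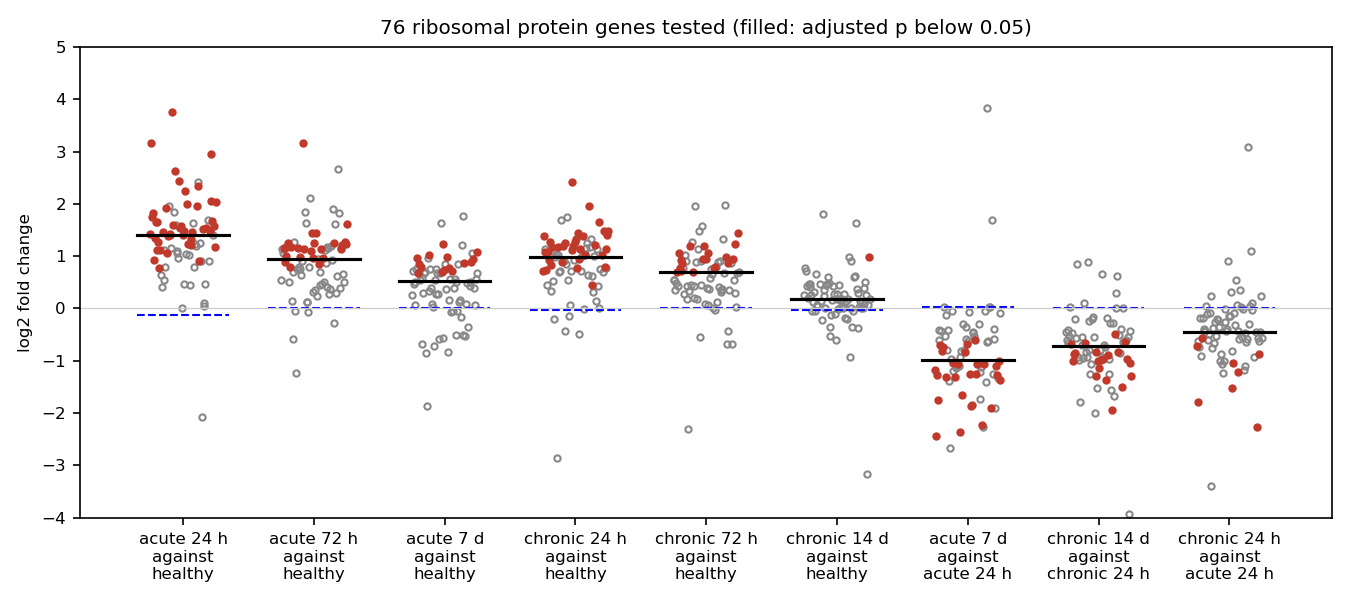
Log2 fold change of the 76 members tested in 9 comparisons, 1 point per member, filled where the adjusted p was below 0.05; black lines are the members' medians and dashed lines the medians of all genes. The axis runs from -4 to 5 and leaves out 12 values. The black line is above the dashed line in the 6 comparisons with healthy and below it in the other 3.

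The median excess over healthy was smaller at the later acute times. At 72 h 26 members were called higher and 0 lower (13.1% and 8.81% of all genes), with a median log2 fold change of 0.95, and at 7 d 15 were called higher and 0 lower (13.1% and 10.6%), with a median of 0.52. At 7 d the libraries of 13 members stood wholly above healthy, as did those of 14.4% of all genes, so that this share was near the background. Rpl32 had 49.1, 60.5, 65.1 and 118 CPM at 72 h and 5.74, 5.08, 4.75 and 4.21 CPM at 7 d, so it was above healthy at 72 h (log2 fold change 3.17, SE 0.91, adjusted p = 0.0144) and within the healthy range at 7 d. Rpl41, which encodes the shortest ribosomal protein, had 76.5, 47.4, 22.2 and 65.1 CPM in healthy and 165, 111, 123 and 96.9 CPM at 7 d (log2 fold change 1.23, SE 0.38, adjusted p = 0.0202). Its groups did not overlap. The 7 d count fell to 8 without healthy replicate 2.

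The decline from acute 24 h to 7 d was itself tested. Of the members 30 were called lower at 7 d and 0 higher (17.4% and 22.6% of all genes), with a median log2 fold change of −0.99. Rpl32 fell by 4.47 on the log2 scale (SE 0.99, adjusted p = 0.000996), Rpl10a by 2.44 (SE 0.50, adjusted p = 0.000446) and Rpl35a, another Diamond-Blackfan gene, by 2.36 (SE 0.73, adjusted p = 0.0129). Rpl35a was low throughout, with 4.36, 4.86 and 1.41 CPM at 24 h and 0.647, 0.902, 0.724 and 0.460 CPM at 7 d.

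After repeated injury, 34 members were called higher at 24 h and 0 lower (17.1% and 14.0% of all genes), with a median log2 fold change of 0.99. At 72 h 19 were called higher and 0 lower (11% and 9.0%), with a median of 0.69, and the count fell to 10 without chronic 72 h replicate 4. Rpl39, of the exit tunnel, had 11.1, 0.975, 3.20 and 1.30 CPM in healthy and 15.9, 17.4, 32.5 and 22.5 CPM at chronic 24 h (log2 fold change 2.42, SE 0.83, adjusted p = 0.0296). Its groups were separate. Rps27a, made as a fusion with ubiquitin, had 7.07, 2.34, 1.94 and 1.21 CPM in healthy and 4.50, 8.37, 20.7 and 5.76 CPM at chronic 24 h (log2 fold change 1.65, SE 0.53, adjusted p = 0.0195), and here the groups overlapped.

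At 14 d after the last injection 1 member was called higher than in healthy HSCs, Rps9, and 1 lower, Rpl26 (5.12% and 3.49% of all genes). The members' median log2 fold change was 0.18. With depth class (shallower or deeper, as above) as a term it was 0.62 and 3 members were called higher, and since all chronic 14 d libraries were shallow that term rests on the chronic 24 h and 72 h libraries. Rps9, a small-subunit protein needed for decoding fidelity, had 49.9, 36.3, 33.4 and 76.5 CPM in healthy and 91.3, 111, 83.0 and 100 CPM at chronic 14 d (log2 fold change 0.98, SE 0.24, adjusted p = 0.0116). Every chronic 14 d library was above every healthy one, but the call was lost without healthy replicate 2 and in a fit of those 2 groups alone. Rps9 was the only member called higher than healthy in all 6 comparisons, and 30 of the 76 were called higher in none of them. The matching shares over all genes were not counted, so these 2 numbers cannot be set against a background. Rpl26 had counts of 0, 0, 2 and 0 in the chronic 14 d libraries and 0, 20, 1 and 72 in the healthy libraries, so that the groups overlapped, and its call was lost when any 1 of the 4 chronic 14 d libraries, or healthy replicate 2 or 4, was left out.

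From chronic 24 h to 14 d, 22 members were called lower and 0 higher (12.9% and 10.1% of all genes), with a median log2 fold change of −0.72. Rps27a fell by 1.5 on the log2 scale (SE 0.53, adjusted p = 0.0433). The count was 9 with depth class as a term, and 13, 14 and 11 without chronic 24 h replicate 3, chronic 14 d replicate 1 and chronic 14 d replicate 3.

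**Figure D4:**
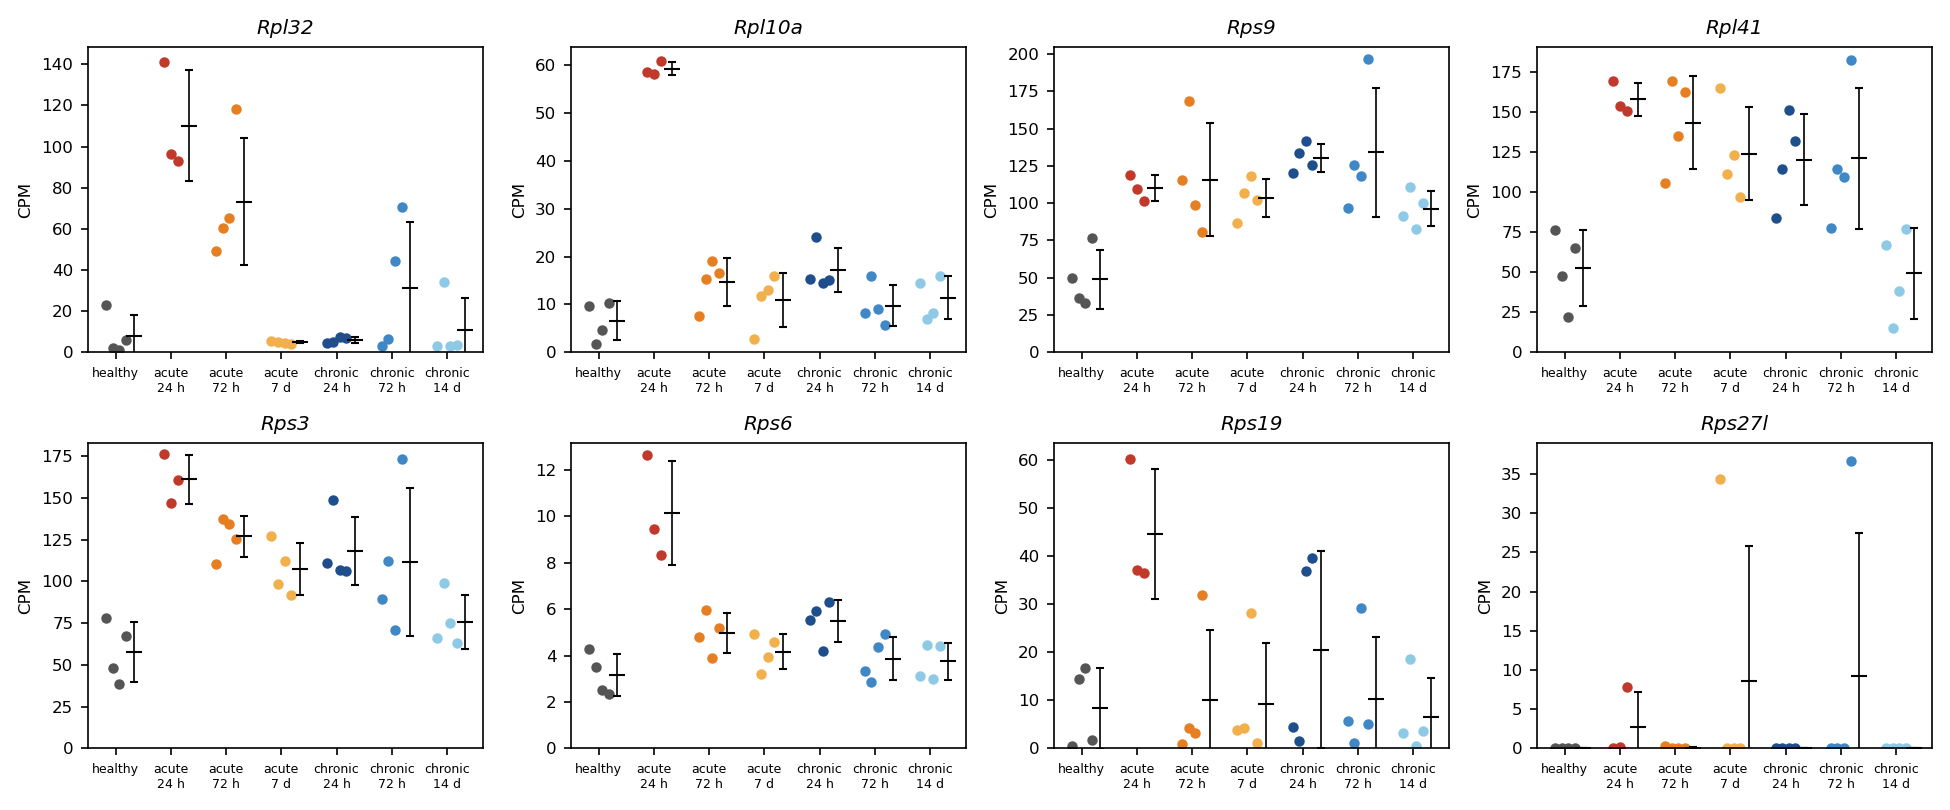
CPM of 8 members in each library, with mean and SD beside each group. Group means of Rpl32 and Rpl10a are highest at acute 24 h, Rps9 and Rpl41 are above healthy in the acute groups, and Rps27l is at or near 0 in all but 3 libraries.

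A first and a repeated injury were compared at 24 h. At chronic 24 h 9 members were called lower than at acute 24 h and 0 higher (7.32% and 14.0% of all genes), with a median log2 fold change of −0.45. Rpl32, with 4.35, 5.08, 7.45 and 6.80 CPM at chronic 24 h, was lower by 4.20 on the log2 scale (SE 0.98, adjusted p = 0.00352), and it was not called against healthy (adjusted p = 0.738). Rps4x was lower by 2.27 (SE 0.79, adjusted p = 0.0435), and its 4 chronic values, 9.59, 28.7, 0.877 and 14.5 CPM, were widely spread. Rpl10a was lower by 1.78 (SE 0.49, adjusted p = 0.0111). The count of 9 was 2 with depth class as a term, and 5, 3 and 5 without acute 24 h replicate 1, acute 24 h replicate 2 and chronic 24 h replicate 1.

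In edgeR's quasi-likelihood test no member was called for a different 24 h to 72 h step between the courses (10.8% of all genes were). The difference was at an unadjusted p below 0.05 in 6 of the 76 members tested, and DESeq2 called 3. Shares over all genes were not counted for these 2 numbers, so they cannot be set against a background. Rpl22, an RNA-binding large-subunit protein with a role in T cell development, came nearest (log2 difference 2.22, SE 0.75, adjusted p = 0.0581).

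Some members were recorded as present in one library and absent in the next of the same group. Of the 80 members 18 had a count of 0 in at least 1 library, and 14 of these were tested. Among genes with a median count of at least 50, 5 of 56 members (8.93%) and 2.8% of 11749 others had such a 0. Rps14, another small-subunit gene, had 360, 466, 0 and 539 counts in the acute 72 h libraries, and Rpl36 had 0, 100, 82 and 215 in the chronic 24 h libraries. Rps27l, a p53-induced paralog of Rps27, had 425 counts in acute 7 d replicate 1, 468 in chronic 72 h replicate 4, 89 in acute 24 h replicate 3, 3 and 2 in 2 others and 0 in the other 22 libraries. None of the 14 was called higher than healthy in any of the 6 comparisons. The matching share of other genes with a 0 was not counted, so this cannot be set against a background. Several of the 14 were also low, with median counts of 0 for Rps29 and 6 for Rpl24. Rps27 and Rps27l differ at 60 of the 252 bases of their coding sequences (76.2% identity). Their first 60 coding bases are shown with the 18 bases that differ in capitals.
Rps27: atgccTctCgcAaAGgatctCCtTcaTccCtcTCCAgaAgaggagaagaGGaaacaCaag
Rps27l: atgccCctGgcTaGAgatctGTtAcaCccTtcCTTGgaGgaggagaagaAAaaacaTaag
Only 1.48% of the 75-base windows of Rps27 were found in no other gene, the lowest share among members tested, so its counts are uncertain. Rps27 had 4.63 to 13.6 CPM in healthy and was called at chronic 72 h only (12.3, 12.1, 14.5 and 24.3 CPM, log2 fold change 0.87, SE 0.30, adjusted p = 0.0395).

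Levels between members were compared per length of the main transcript. The members tested had a median of 19.1 CPM per kb over all libraries, and 14050 protein-coding genes tested had a median of 7.19 CPM per kb. Rpl41 had the highest level (247 CPM per kb), followed by Rpl4 (156), Rps9 (140) and Rplp1 (128). As the ribosome holds 1 copy of nearly every protein, the spread from 1.63 to 247 CPM per kb among members tested is given beside the pseudogene sharing above, and the part of that sharing in it was not tested.

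Ribosomal protein genes outside the naming rule, with paralogs and partners, were taken as a further list. Of these genes, which include Rps3a1, Rack1, Fau and Rpl22l1, 5 of 7 were called higher at acute 24 h and 5 of 7 at chronic 24 h, and 0 lower in either. Of all genes, 15.5% and 17.1% were called higher at these times and 18.1% and 14.0% lower. Rps3a1, a small-subunit protein, rose at acute 24 h (log2 fold change 1.37, SE 0.17, adjusted p = 2.69e-06) and was still higher at chronic 14 d (log2 fold change 0.53, SE 0.16, adjusted p = 0.0431). Rack1, a signalling scaffold on the small subunit, rose by 1.76 (SE 0.20, adjusted p = 5.56e-07) at acute 24 h. Fau and Rpl22l1 were not called at acute 24 h (log2 fold changes 0.84 and 0.79).

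The counts of the wider translation machinery are read against the 15.5% of all genes called higher at acute 24 h, the 17.1% at chronic 24 h and the 10.6% called lower at acute 7 d. Of the other TOP genes, elongation factors and the like, 11 of 16 were called higher at acute 24 h and 4 of 16 at chronic 24 h, with 0 lower and a median log2 fold change of 1.34 at acute 24 h, and the chronic 24 h count was not far from the background. Initiation factors were called higher in 22 of 30 at acute 24 h and 12 of 30 at chronic 24 h, with a median of 0.84 at acute 24 h. Ribosome biogenesis factors were called higher in 37 of 57 and lower in 0 at acute 24 h (median 1.07). At acute 7 d 3 of the 30 initiation factors and 7 of the 57 biogenesis factors were called lower, both near the background, and 0 higher. Nhp2, of the box H/ACA snoRNPs, had the largest rise of this list (log2 fold change 2.78, SE 0.38, adjusted p = 6.92e-06), and Eif4a1, the helicase of the cap complex, rose by 1.79 (SE 0.24, adjusted p = 4.83e-06). The chaperones and importers of ribosomal proteins were called higher in 8 of 12 at acute 24 h.

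RNA polymerase I and its factors, which make the ribosomal RNA, were called higher in 2 of 14 and lower in 1 at acute 24 h, where 15.5% of all genes were called higher and 18.1% lower, so that the count of higher calls was near the background. Of the TORC1 and MYC genes 4 of 19 were called higher and 2 lower, also not far from it, with a median log2 fold change of 0.23. The MYC partner Max rose by 1.74 on the log2 scale (SE 0.38, adjusted p = 0.00105). Eif4ebp1 rose by 1.43 (SE 0.21, adjusted p = 1.24e-05), and the TORC1 inhibitor Deptor fell by 1.22 (SE 0.30, adjusted p = 0.00246). The mitochondrial ribosomal proteins were called higher in 25 of 77 and lower in 0, with a median log2 fold change of 0.53. Of the 13 mitochondrial genome protein genes 1 was called higher. Of the p53 targets 4 of 16 were called higher and 5 lower, and of the proliferation genes 0 of 18 higher and 5 lower at acute 24 h, against 17 of 18 higher at acute 72 h.

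Markers of other cell types were tested in the same comparisons, and their counts are read against the shares of all genes. At acute 24 h 15.5% of all genes were called higher and 18.1% lower, and at chronic 24 h 17.1% and 14.0%. At acute 7 d 13.1% were called higher, and at chronic 14 d 5.12%. At acute 24 h hepatocyte markers were lower in 11 of 14 and their summed level was 195 to 488 CPM, against 754 to 4850 CPM in healthy. HSC markers were called lower in 8 of 15 and higher in 2 at acute 24 h, and lower in 11 of 15 and higher in 1 at chronic 24 h. Macrophage markers were called lower in 4 of 15 at acute 24 h (175 to 251 CPM, healthy 173 to 693 CPM), not far from the background. They were called higher in 13 of 15 and lower in 0 at acute 7 d (4370 to 11200 CPM), and higher in 11 of 15 at chronic 24 h (637 to 4020 CPM). Sinusoidal endothelial markers were called lower in 7 of 12 and higher in 1 at acute 24 h. Lymphocyte markers were called lower in 3 of 13 at acute 24 h, near the background, and higher in 10 of 13 at both acute 7 d and chronic 14 d. Neutrophil markers, 8 listed and 6 tested, were called higher in 5 of 6 at acute 24 h and 6 of 6 at chronic 14 d. The summed level of the 8 was low, at 0.39 to 2.18 CPM in healthy, 4.13 to 21.0 CPM at acute 24 h and 45.5 to 54.1 CPM at chronic 14 d. Cholangiocyte markers were called higher in 0 of 6 at acute 24 h, 1 of 6 at acute 7 d and 2 of 6 at chronic 14 d. Their summed level was 55.8 to 103 CPM in healthy and 761 to 4800 CPM at acute 7 d. No listed marker was at 0 in all libraries. The part of these cells in the ribosomal protein counts was not tested.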

How the data were processed

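Gene counts of 27 libraries of sorted mouse HSCs were analysed. Per the paper's methods, single-end reads of 75 bases were mapped by the authors with STAR to GRCm38 and assembled with StringTie, and the authors deposited raw counts per Ensembl gene. The treatment of reads that map to several places and the annotation release are not given in the sources used here. Every value column mapped to a sample (0 unmatched). IDs were matched to GENCODE M21, in which 53274 of 53379 were found. Members and lists were chosen with earlier results of these data known. Named members are a set fixed by role, the 3 highest and 3 lowest called per comparison, and members never called or not tested. Other genes named are those outside the naming rule and the 3 largest called changes per list and comparison.

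Counts were fitted with edgeR 4.0.16 in R 4.3.3 (filterByExpr, TMM, robust quasi-likelihood, 1 model of 7 group means), with Benjamini-Hochberg adjustment over 18758 genes. DESeq2 1.42.0, which the authors used, was an alternative, with other scalings and filters, a 2-fold minimum, a replicate block, a depth class and each library left out. Uniqueness is the share of 75-base windows of the main transcript in no transcript of another gene. Totals of 6314801 to 13052838 counts per library limit the precision of low members. Tested on simulated data of 18758 genes, 200 of them changed 2-fold, the fit recovered 25% of those for acute 24 h against healthy. Replicates were biological repeats from separate experiments, per the paper's methods. Some genes that the naming rule selects are not reported here.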

Additional observations from a re-analysis of the deposited data

Results flagged for a closer look

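In groups of 4 libraries, 24 of 186 sets of values held 1 library that stood apart from the other 3 by more than Dixon's 95% limit (chance gives about 1 in 20). The members' share of counts was 0.17% in the highest chronic 14 d library and 0.142% to 0.146% in the others.

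Several members had 1 library far above its group. Rps19 was at 31.8 CPM in 1 acute 72 h library (others 0.797 to 4.16), 28.1 at acute 7 d (1.07 to 4.18), 29.3 at chronic 72 h (1.14 to 5.6) and 18.7 at chronic 14 d (0.481 to 3.53). Rps25 was at 58.8 CPM at chronic 24 h (11.8 to 13.9) and 40.7 at chronic 14 d (7.1 to 10.7). Rpl35a was at 4.26 CPM at acute 72 h, 4.96 at chronic 24 h and 2.9 at chronic 72 h, and the other libraries of these groups had 0.467 to 1.1. Rps27l was at 34.4 CPM at acute 7 d and 36.7 at chronic 72 h, with the others at 0. Rpl32 was at 34.3 CPM in 1 chronic 14 d library (2.97 to 3.38), and Rpl27a at 41.2 in 1 chronic 72 h library (9.6 to 14.2). Also flagged were 2 values at the floor, where the other libraries of the group were at 0. They were Rps27l at acute 72 h (0.266 CPM, 3 counts) and Rpl26 at chronic 14 d (0.241 CPM, 2 counts).

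Smaller excesses were seen for Rpl10 (49.0 CPM at chronic 72 h, others 27.5 to 29.4), Rpl10a (24.2 at chronic 24 h, 14.5 to 15.3), Rplp1 (59.1 at chronic 14 d, 35.8 to 39.1), Rps27a (5.92 at chronic 14 d, 2.43 to 2.94) and Rps3 (149 at chronic 24 h, 107 to 111). Low libraries were found at chronic 72 h for Rpl11 (1.33 CPM, others 4.51 to 4.86), Rpl13a (13.9, others 17.6 to 18.0) and Rpl5 (3.14, others 11.7 to 12.5).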

How the results depend on the processing

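Members called higher than healthy at acute 24 h (44), acute 72 h (26) and chronic 24 h (34) stayed within 1.5 times under all settings run, and without any 1 library they were 37 to 47, 22 to 33 and 25 to 37. The 15 called at acute 7 d were 3 with a 2-fold minimum and 8 to 18 with 1 library left out. The 19 at chronic 72 h were 12 in a fit of those groups alone, 6 with a 2-fold minimum and 10 to 24 with 1 library left out. At chronic 14 d the 1 called higher was 3 with library size alone, 3 with depth class, 0 in a fit of those groups alone, 0 with a 2-fold minimum and 0 to 1 with 1 library left out. The 1 called lower there was 0 with DESeq2 size factors, library size alone, no filter, those groups alone, a replicate block, depth class or without members with a 0 (chosen after seeing the data), and 0 to 1 with 1 library left out. The chronic 14 d median of 0.18 was 0.62 with depth class. The 22 lower at chronic 14 d than chronic 24 h were 9 with depth class, 10 with a 2-fold minimum and 11 to 25 with 1 library left out. The 9 lower at chronic than acute 24 h were 2 with depth class and 3 to 11 with 1 library left out. DESeq2 added 1 lower at chronic 24 h, 1 higher at chronic 14 d than chronic 24 h and 3 higher in the 24 h to 72 h step, where leaving out 1 library gave 0 to 2. Without the 100 most abundant other genes in the total, the share was 0.157% in healthy, 0.431%, 0.334% and 0.263% in the acute and 0.303%, 0.3% and 0.201% in the chronic groups. The cause of these shifts was not tested.

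Replicate numbers were shared across groups, and no pairing by number was seen. Same-numbered libraries had correlations of -0.17 to 0.19, and 8 of 27 were closest to their own number. With 3 or 4 libraries in a group this cannot exclude a pairing. Replicates 1 and 2 were the shallower ones at both chronic 24 h and chronic 72 h. With the replicate block 1 member was called lower at acute 7 d and 1 higher in the step, where there had been 0. Of the named members' values, 645 kept their call and 91 lost it under another setting, 491 kept it and 129 lost it with 1 library left out, and 0 changed direction.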
